A study of Mus musculus with 18 samples.

Results

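The histone acetyltransferases and deacetylases described here are 10 genes, chosen by name, of the 24485 genes quantified by RNA-seq in bone marrow-derived macrophages (BMDMs). All 10 were found by symbol. The acetyltransferases are Ep300, Crebbp, Kat2a and Kat2b, and the deacetylases are Hdac1, Hdac2 and Hdac3 of class I and Hdac4, Hdac5 and Hdac7 of class IIa. The BMDMs were grown for 6 days in L929-conditioned medium from the marrow of 3 Il10-/- mice on the C57BL/6J background, described in the study's methods as males 12 weeks old, so that no group could make its own IL-10. The 18 libraries formed 6 groups of 3: unstimulated (untreated cells given buffer), JQ1 (500 nM (+)-JQ1), IL-10 (10 ng/mL), and LPS, LPS + JQ1 and LPS + IL-10, in which 50 ng/mL lipopolysaccharide (LPS) was added for 4 hours after 12 hours of the same pretreatments. JQ1 blocks the bromodomains through which BET proteins bind acetylated histones. The labels call the LPS cells without pretreatment untreated, whereas the study's methods name a vehicle control for them.

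Acetyltransferases place acetyl groups on lysines of histone tails, which loosens chromatin and makes binding sites for bromodomain proteins, and deacetylases remove them. Ep300 and Crebbp are large, closely related coactivators that acetylate histones at enhancers and promoters, and Kat2a (GCN5) and Kat2b (PCAF) are the alternative catalytic subunits of the SAGA and ATAC complexes. Class I deacetylases are nuclear enzymes that work in corepressor complexes, Hdac1 and Hdac2 in the Sin3, NuRD and CoREST complexes and Hdac3 in a separate corepressor complex. Class IIa deacetylases shuttle between nucleus and cytoplasm under the control of kinases, have weak catalytic activity of their own and repress MEF2 transcription factors. In macrophages these enzymes are known for setting the acetylation of inflammatory genes that BET proteins then read.

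The genes were spread over the genome. In build mm9 (GENCODE vM1), Ep300 was at chr15:81415781-81482507 and Kat2b at chr17:53706186-53812045, both on the plus strand. Hdac5 was at chr11:102055746-102091480, Hdac4 at chr1:93829334-94044970 and Hdac7 at chr15:97623095-97674933, all on the minus strand. Kat2a was also on chromosome 11, at chr11:100566060-100573779. Exons of Hdac7 overlapped those of Slc48a1 on the other strand by 29 bases, and no other of the 10 genes shared exon sequence with a quantified gene.

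Promoter sequences from RefSeq (build GRCm38.p6, from 250 bases before to 50 bases after the annotated start) were matched by symbol for 8 of the 10 genes, in 12 windows. Those of Hdac4 and Hdac5, class IIa genes that fell with LPS and were higher with LPS + JQ1 than with LPS, and of the upstream start of Kat2b, which moved the opposite way, are shown 5′ to 3′. Capitals mark matches, on either strand, to the letters searched: GGGCGG (GC box), CTA and TAG 4 bases apart (MEF2), TGANTCA (AP-1) and GAGGAAGT (PU.1). Matches of 2 different motifs did not overlap in these windows. The Hdac4 window was chr1:92180292-92180591 (minus strand), the Hdac5 window chr11:102230123-102230422 (minus strand) and the Kat2b window chr17:53566721-53567020 (plus strand).
Hdac4: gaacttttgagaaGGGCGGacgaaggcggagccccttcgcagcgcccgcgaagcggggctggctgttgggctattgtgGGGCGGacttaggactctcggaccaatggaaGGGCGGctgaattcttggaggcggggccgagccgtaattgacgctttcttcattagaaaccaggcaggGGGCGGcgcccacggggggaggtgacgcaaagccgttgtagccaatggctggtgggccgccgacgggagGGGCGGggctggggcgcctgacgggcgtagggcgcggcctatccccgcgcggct
Hdac5: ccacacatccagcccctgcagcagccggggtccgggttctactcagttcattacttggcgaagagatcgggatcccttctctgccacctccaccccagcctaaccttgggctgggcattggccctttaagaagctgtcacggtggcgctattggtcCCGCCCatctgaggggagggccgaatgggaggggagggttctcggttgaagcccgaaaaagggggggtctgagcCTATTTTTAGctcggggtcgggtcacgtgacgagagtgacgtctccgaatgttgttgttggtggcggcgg
Kat2b: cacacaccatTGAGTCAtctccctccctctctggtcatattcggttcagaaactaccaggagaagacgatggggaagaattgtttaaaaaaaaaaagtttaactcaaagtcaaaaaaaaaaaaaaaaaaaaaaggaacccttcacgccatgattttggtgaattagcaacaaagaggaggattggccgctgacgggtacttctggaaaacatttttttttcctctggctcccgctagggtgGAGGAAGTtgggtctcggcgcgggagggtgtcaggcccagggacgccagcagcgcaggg

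The Hdac4 window was GC-rich (68.0% against a median of 52.7% over 32851 promoter windows) and held 5 GC boxes, a motif found at least once in 35.7% of all windows. The Hdac5 window held 1 GC box and 1 match to the MEF2 letters, CTATTTTTAG at 20 to 11 bases before the start, which 3.69% of windows contained. The Kat2b window was poorer in GC (47.0%) and carried no GC box. It held an AP-1 match, TGAGTCA, 240 to 234 bases before the start and a PU.1 match 9 to 2 bases before it, motifs present in 7.81% and 3.20% of windows. Among the windows not shown, one of Hdac7 also held TGAGTCA, 23 to 29 bases after the start. That of Hdac2 held a match to the MEF2 letters, CTACCCGTAG, 148 to 139 bases before the start. The search allowed any 4 bases between CTA and TAG, which were CCCG in Hdac2 and TTTT in Hdac5, and the 3.69% counts all such windows. GC boxes were in windows of Ep300, Crebbp, Hdac2 and Hdac7. The letters GGGA and TTTCC 1 base apart (NF-kB, 0.411% of windows) and TGACGTCA (CRE, 1.79%) were in none of the 12 windows. These matches describe the letters of the windows and not bound sites.

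Resting BMDMs expressed all 10 genes, with Hdac5 the highest. In TPM, a relative abundance scaled to transcript length, the mean level in unstimulated cells was 78.5 ± 3.0 (SD, n = 3) for Hdac5, 60.1 ± 3.2 for Ep300, 46.9 ± 1.9 for Crebbp and 38.7 ± 1.7 for Hdac1. Hdac3, Hdac2, Kat2a and Kat2b lay between 17.7 and 27.4 TPM, and Hdac4 (9.51 ± 0.10) and Hdac7 (5.98 ± 0.24) were lowest. After LPS the order was different. Hdac1 was then the highest of the 10 at 77.6 ± 10.1 TPM and Hdac5, at 2.53 ± 0.29 TPM, was eighth. Of the summed TPM of the 6 deacetylases described here, Hdac4, Hdac5 and Hdac7 supplied 50.6% ± 1.7 in unstimulated cells and 4.53% ± 0.67 in LPS cells, and the share of Hdac5 alone went from 42.2% to 2.08%. Over all 11 zinc-dependent deacetylases, with Hdac9 counted in class IIa, the class IIa share was 46.6% ± 1.8 and 6.57% ± 0.27.

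Libraries held between 6781952 and 28289498 expected counts, and every member had at least 47 counts in every library. All 7 macrophage markers were above 1 TPM in every group, with a summed level of 22865 to 24626 TPM in unstimulated, 28926 to 29055 in JQ1, 14070 to 15492 in LPS and 19568 to 22550 in LPS + JQ1 libraries, and T cell, B cell and erythroid markers summed to at most 1.23 TPM in any library. The 5 cycling-cell markers (Mki67, Top2a, Ccnb1, Cdk1 and Mcm5) summed to 58.0 to 78.8 TPM in unstimulated cells and 20.8 to 25.1 with JQ1, and to 60.9 to 82.0 TPM with LPS and 11.6 to 12.4 with LPS + JQ1. The similar sums without and with LPS hide opposite changes. With LPS, Mki67 rose from 18.5 to 24.3 up to 50.5 to 65.1 TPM. Top2a, Ccnb1, Cdk1 and Mcm5 all fell, Cdk1 from 8.10 to 10.5 down to 1.25 to 1.67 TPM. The 5 neutrophil markers, 2 or 3 of which were at 0, summed to 21.1 to 74.0 TPM in unstimulated cells and 6.76 to 13.4 with JQ1, and to 32.4 to 45.9 TPM with LPS and 10.7 to 23.9 with LPS + JQ1. The 3 dendritic cell markers summed to 0.11 to 0.77 TPM in unstimulated, 1.87 to 2.61 in LPS and 1.08 to 1.34 in LPS + JQ1 libraries. The macrophage sum was mostly Lyz2 (17677 to 19119 TPM in unstimulated libraries), and its genes did not move together. With JQ1 alone Lyz2, Cd14 and Mertk rose and Adgre1, Cd68, Csf1r and Itgam fell. With LPS Cd14 and Adgre1 rose and the other macrophage markers fell. The macrophage, cycling and neutrophil sums thus moved with the JQ1 comparisons, and the dendritic cell sum with LPS and with JQ1 during LPS. The macrophage sum and the single cycling markers also moved with LPS. The part of these lists in the results was not tested. In bulk RNA, fewer cells of a type and less RNA per cell cannot be told apart.

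The order of the groups in TPM differed between genes. Ep300 was highest in IL-10 libraries (65.6 to 70.6 TPM) and lowest in LPS + JQ1 libraries (31.3 to 32.9 TPM), and only its unstimulated and JQ1 libraries overlapped among neighbours in that order. Crebbp was also highest with IL-10 (49.8 to 51.4 TPM) but lowest with JQ1 (34.9 to 35.8 TPM). Kat2a fell into 3 levels: 18.9 to 20.9 TPM in unstimulated and IL-10 libraries, 12.6 to 14.1 TPM in both JQ1 groups, and 9.67 to 11.4 TPM in LPS and LPS + IL-10 libraries. Kat2b and Hdac1 were highest with LPS + IL-10 (43.7 to 59.1 and 85.2 to 103 TPM), where they overlapped LPS libraries. In normalised counts, on the median-of-ratios scale of DESeq2, some orders were different. Ep300 was then highest with LPS + IL-10 (mean 4752, against 4097 with IL-10) and Crebbp with LPS (3974, against 2608 with IL-10). Kat2a was lowest with JQ1 (326.3), under LPS (356.8), LPS + IL-10 (359.0) and LPS + JQ1 (379.0).

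Hdac2, at 21.2 to 31.0 TPM over all 18 libraries, overlapped between every pair of neighbouring groups in TPM. In normalised counts its LPS libraries (537.7 to 607.7) lay above the unstimulated ones (332.5 to 358.0). Hdac3 was at 25.4 to 38.2 TPM in the groups without LPS and in LPS + JQ1, and at 14.5 to 17.8 TPM in LPS and LPS + IL-10. Hdac4, Hdac5 and Hdac7 shared an order of groups in TPM. Hdac4 had no overlap between neighbours anywhere in the order IL-10, unstimulated, JQ1, LPS + JQ1, LPS + IL-10 and LPS, with means of 10.5, 9.51, 6.52, 4.58, 2.16 and 1.70 TPM. Hdac5 followed the same order, with overlap between IL-10 and unstimulated and between LPS + IL-10 and LPS libraries. Hdac7 did so as well, with overlap between IL-10 and unstimulated and between LPS + JQ1 and LPS + IL-10 libraries.

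**Figure D1:**
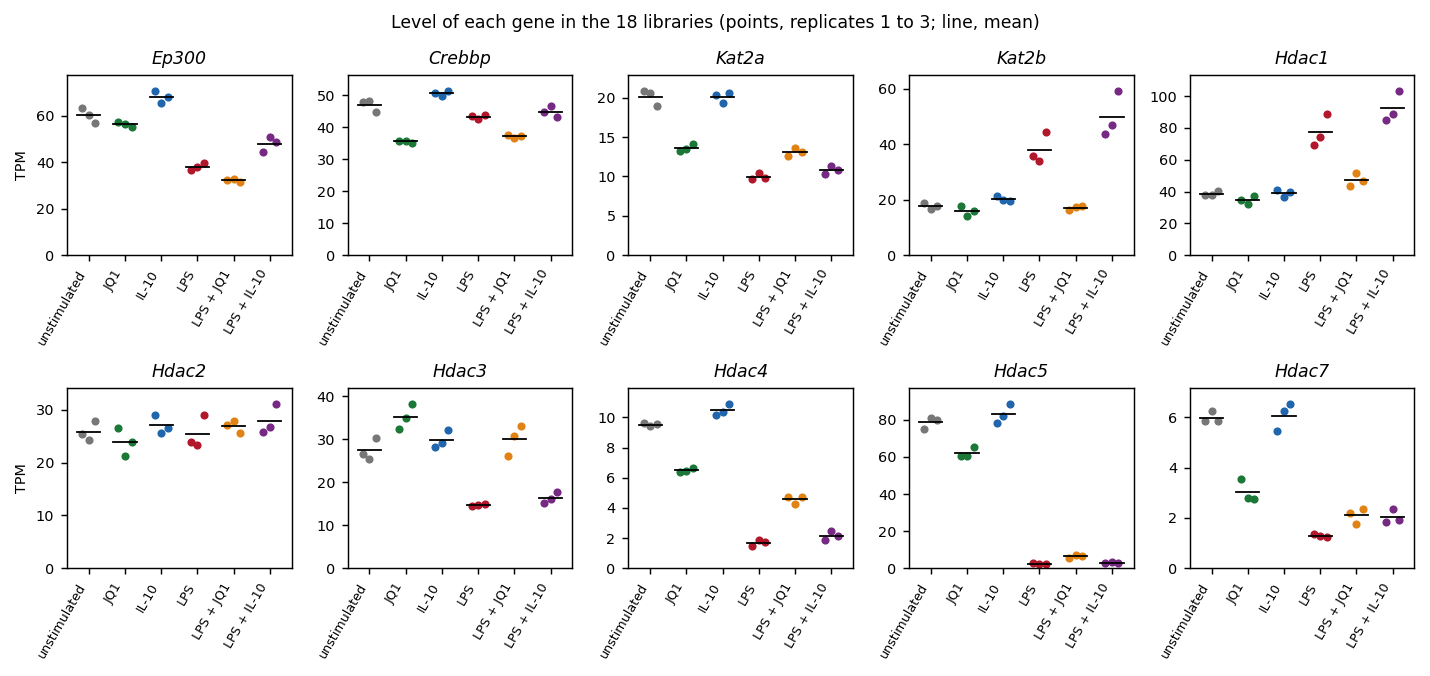
Level (TPM, linear axes from 0) of each of the 10 genes in the 6 groups, with 3 libraries per group as points and the group mean as a line. Hdac4, Hdac5 and Hdac7 are low in all 9 LPS libraries, and Kat2b and Hdac1 are high in the LPS and LPS + IL-10 libraries and lower in LPS + JQ1.

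The first comparison asked how LPS alone changed these genes. Relative to the median-of-ratios scale of DESeq2, 8 of the 10 were called at an adjusted p under 0.05, 4 higher and 4 lower, against 64.5% of all genes tested (31.6% higher and 32.9% lower), so that the number called was not far from the background. What set the genes apart from each other was direction: Hdac4, Hdac5 and Hdac7 fell the most, and Kat2b and Hdac1 rose the most. Such falls were not particular to class IIa. Hdac8, a class I gene outside the 10, fell by 1.50 on the log2 scale. Hdac9 of class IIa was not called in the main fit (-0.25). The scale matters here. Relative to total counts the median gene moved by -0.997 on the log2 scale after LPS, and relative to TPM by -0.63, against -0.07 in the main fit. Of all genes called, 49.0% were higher in the main fit and 20.1% under total-count scaling, and of the 10 genes 2 were called higher and 7 lower under the latter. Of the 10 genes, 6 kept their call and direction under all 4 scalings tried (57.0% of all genes tested did so): Kat2b and Hdac1 higher, and Kat2a, Hdac4, Hdac5 and Hdac7 lower.

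Hdac5 had the largest change of the 10. Its level was 75.1, 80.9 and 79.7 TPM in the 3 unstimulated libraries and 2.78, 2.59 and 2.21 TPM in the LPS libraries, which stood far apart. It fell by 4.18 ± 0.12 (SE) on the log2 scale, or 18.1-fold (DESeq2 adjusted p = 7.52e-277), and was the 230th largest fall among the 14965 genes tested. Under total-count scaling its log2 change was -5.10.

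Hdac4 and Hdac7 fell less than Hdac5. Hdac4 was at 9.60, 9.41 and 9.53 TPM without LPS and at 1.48, 1.87 and 1.76 TPM with it, a 3.23-fold fall on the DESeq2 scale (adjusted p = 1.17e-55). Hdac7 was at 5.85, 6.26 and 5.83 TPM and then at 1.38, 1.28 and 1.23 TPM, 2.66-fold lower (DESeq2 adjusted p = 1.07e-14). For both genes all 3 LPS libraries lay under all unstimulated libraries, as they did for Hdac5.

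Kat2b and Hdac1 rose by similar amounts. Kat2b, the catalytic subunit that can replace Kat2a, was at 18.9, 16.8 and 17.6 TPM without LPS and at 35.7, 33.9 and 44.4 TPM with it, a log2 change of 1.87 ± 0.09 (3.65-fold, DESeq2 adjusted p = 6.04e-86). Hdac1 was at 37.5, 37.9 and 40.6 TPM and then at 69.6, 74.2 and 88.9 TPM, a log2 change of 1.78 ± 0.07 (3.43-fold, DESeq2 adjusted p = 1.31e-132). Neither gene's groups overlapped, and in TPM both rose by about 1 on the log2 scale (1.05 for Kat2b and 0.98 for Hdac1 with log2(TPM + 1)). Replicate 3 was the highest LPS library for both.

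The remaining 5 genes depended on the scale or changed little. Crebbp rose 1.59-fold (DESeq2 adjusted p = 9.69e-17) and Hdac2 rose 1.67-fold (adjusted p = 1.63e-15) on the median-of-ratios scale, but their log2 changes were -0.26 and -0.19 under total-count scaling, and their TPM ranges lay close together (44.7 to 48.1 and 42.7 to 43.8 for Crebbp, 24.3 to 27.8 and 23.4 to 29.0 for Hdac2). Ep300 had a log2 change of 0.12 ± 0.07 (DESeq2 adjusted p = 0.108), which passed the threshold with the replicate number as a block (adjusted p = 0.0236) or the sequencing lane as a covariate (adjusted p = 0.00835) and was -0.81 under total-count scaling. Hdac3 had a log2 change of -0.12 ± 0.10 (DESeq2 adjusted p = 0.312) and of -1.05 under total-count scaling. Kat2a was lower on every scale tried, 1.17-fold on that of DESeq2 (adjusted p = 0.0248), but its call was lost without replicate 1, 2 or 3 of all groups (adjusted p = 0.217, 0.142 and 0.124).

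**Figure D2:**
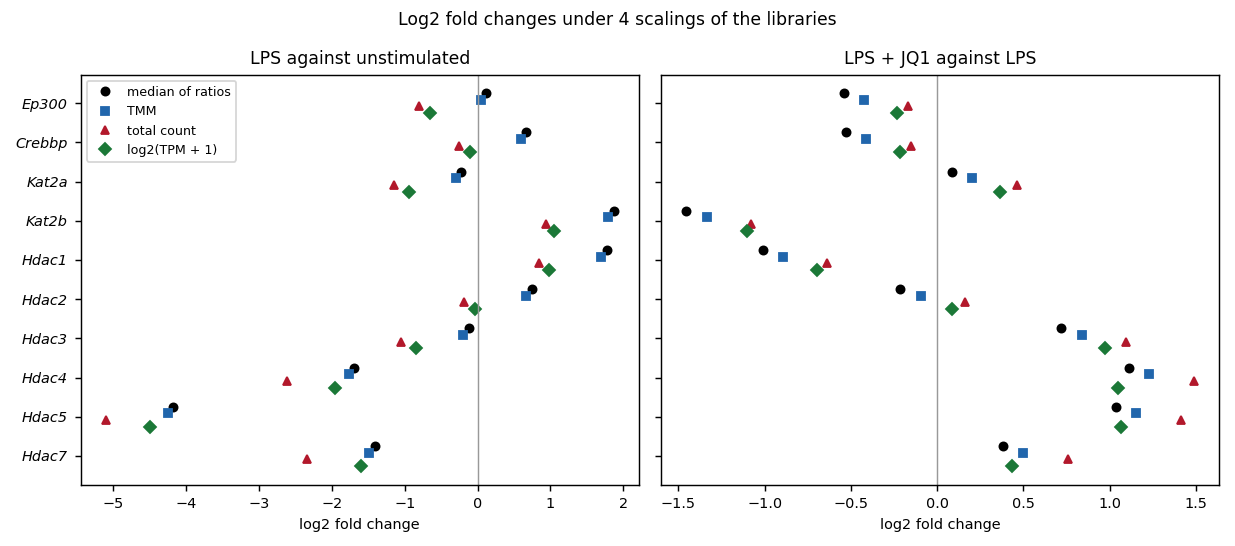
Log2 fold changes of the 10 genes under 4 scalings (median of ratios and TMM in DESeq2, total count in DESeq2, and limma on log2(TPM + 1)), for LPS against unstimulated (left) and LPS + JQ1 against LPS (right, with its own axis range). Ep300, Crebbp and Hdac2 lie on both sides of 0 in the left panel and Hdac2 in the right panel, whereas Hdac5, Hdac4, Kat2b and Hdac1 stay on the same side in both.

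Ratios between related genes within a library do not depend on the scaling. The ratio of Ep300 to Crebbp TPM was 1.28 ± 0.04 in unstimulated, 1.58 ± 0.01 in JQ1 and 1.34 ± 0.04 in IL-10 libraries, and 0.877 ± 0.032 in LPS, 0.867 ± 0.029 in LPS + JQ1 and 1.07 ± 0.07 in LPS + IL-10 libraries. The ratio of Kat2b to Kat2a was 0.881 ± 0.062 in unstimulated and 3.82 ± 0.65 in LPS libraries, and was 1.30 ± 0.04 after JQ1 and LPS but 4.60 ± 0.74 after IL-10 and LPS. The ratio of Hdac1 to Hdac2 was 1.50 ± 0.05, 3.05 ± 0.13, 1.76 ± 0.13 and 3.33 ± 0.01 in the same 4 groups. LPS + JQ1 libraries were thus apart from LPS libraries, with no overlap, in the last 2 ratios but not in the ratio of Ep300 to Crebbp.

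**Figure D3:**
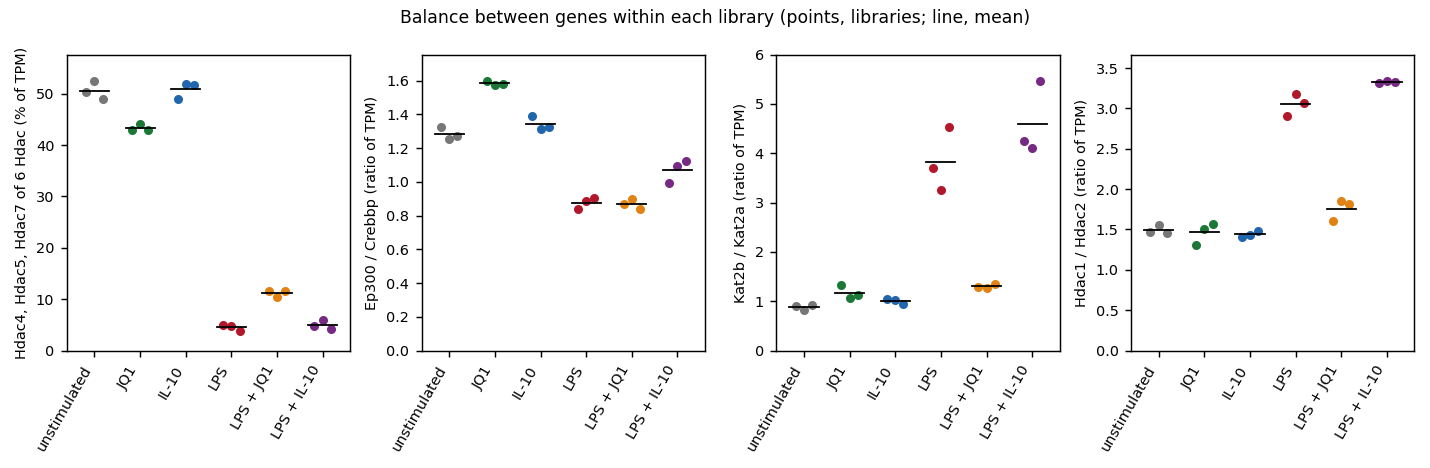
The share of Hdac4, Hdac5 and Hdac7 in the summed TPM of the 6 deacetylases described here, and the ratios of Ep300 to Crebbp, Kat2b to Kat2a and Hdac1 to Hdac2 (linear axes from 0) in each library, with group means as lines. The share is 42.9% to 52.4% in the 9 libraries without LPS and 3.76% to 11.5% in those with LPS, and the LPS + JQ1 libraries are the highest of the latter.

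JQ1 given before LPS moved the 4 genes with the largest LPS changes (Hdac5, Kat2b, Hdac1 and Hdac4) the opposite way. In LPS + JQ1 against LPS, 8 of the 10 were called, 3 higher (Hdac3, Hdac4 and Hdac5) and 5 lower (Ep300, Crebbp, Kat2b, Hdac1 and Hdac2), beside 57.3% of all genes tested (24.4% higher and 32.9% lower). The median of the 10 was -0.06 and that of all genes -0.10. All of these calls except that of Hdac2 held under the 4 scalings (7 of 10 genes, beside 51.1% of all genes tested), although the share of all called genes that were higher was 42.5% in the main fit and 64.9% under total-count scaling. This comparison and that of LPS against unstimulated share the LPS libraries, so their values are given side by side and were not correlated.

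Kat2b fell the most of the acetyltransferases. Its 3 LPS + JQ1 libraries were at 16.4, 17.3 and 17.5 TPM, all under the lowest LPS library and within or near the unstimulated range of 16.8 to 18.9 TPM. The log2 change was -1.45 ± 0.09 (2.74-fold lower, DESeq2 adjusted p = 3.90e-53). On the DESeq2 scale the mean was 133% of that of unstimulated cells, compared with 366% after LPS alone.

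Ep300 and Crebbp, the related coactivators, fell together and by nearly the same amount. Ep300 was at 36.7, 37.8 and 39.6 TPM with LPS and at 32.5, 32.9 and 31.3 TPM with LPS + JQ1 (1.46-fold lower, DESeq2 adjusted p = 1.27e-15). Crebbp was at 43.6, 42.7 and 43.8 TPM and at 37.4, 36.8 and 37.4 TPM (1.44-fold lower, adjusted p = 1.01e-10). The groups did not overlap for either gene, but under total-count scaling the log2 changes were smaller (-0.17 and -0.15). Kat2a had a log2 change of 0.09 ± 0.09 (DESeq2 adjusted p = 0.459) and of 0.46 under total-count scaling.

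Among the class I deacetylases Hdac1 fell and Hdac3 rose. Hdac1 was at 43.7, 51.8 and 46.5 TPM with LPS + JQ1, between the LPS and unstimulated libraries and overlapping neither, with a log2 change from LPS of -1.01 ± 0.07 (2.02-fold lower, DESeq2 adjusted p = 5.79e-47). Hdac3, which works in a corepressor complex apart from those of Hdac1 and Hdac2, was at 14.5, 14.6 and 15.1 TPM with LPS and at 26.3, 30.9 and 33.0 TPM with LPS + JQ1, a log2 change of 0.72 ± 0.10 (1.65-fold, DESeq2 adjusted p = 1.13e-11). In TPM all Hdac3 libraries of LPS + JQ1 were thus within or above the range of unstimulated cells, 25.4 to 30.4 TPM, and those of LPS under it. On the DESeq2 scale the LPS libraries (normalised counts of 315.5 to 352.0) overlapped the unstimulated ones (346.4 to 391.5). Those of LPS + JQ1 (503.6 to 608.1) lay above both. Hdac2 had the smallest called change (1.16-fold lower, DESeq2 adjusted p = 0.0309), which was 0.16 on the log2 scale under total-count scaling and was not called without replicate 1, 2 or 3 of all groups (adjusted p = 0.116 to 0.422).

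The class IIa genes Hdac4 and Hdac5 were about 2-fold higher with LPS + JQ1 than with LPS, yet remained under the unstimulated level. Hdac4 was at 4.73, 4.26 and 4.75 TPM, a log2 change of 1.12 ± 0.11 (2.17-fold, DESeq2 adjusted p = 7.66e-23). Its mean was 48.1% of the unstimulated TPM, compared with 17.9% after LPS alone. Hdac5 was at 5.69, 6.94 and 6.57 TPM, a log2 change of 1.04 ± 0.13 (2.05-fold, DESeq2 adjusted p = 5.78e-15). Its mean was only 8.15% of the unstimulated TPM, compared with 3.22% after LPS alone. Hdac7 was at 2.20, 1.77 and 2.35 TPM against 1.38, 1.28 and 1.23 TPM with LPS. Its log2 change of 0.38 ± 0.19 was not called (DESeq2 adjusted p = 0.0776), although it was under TMM scaling (0.50), total-count scaling (0.76), log2(TPM + 1) (0.43) and edgeR's quasi-likelihood test (0.48, adjusted p = 0.0154).

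**Figure D4:**
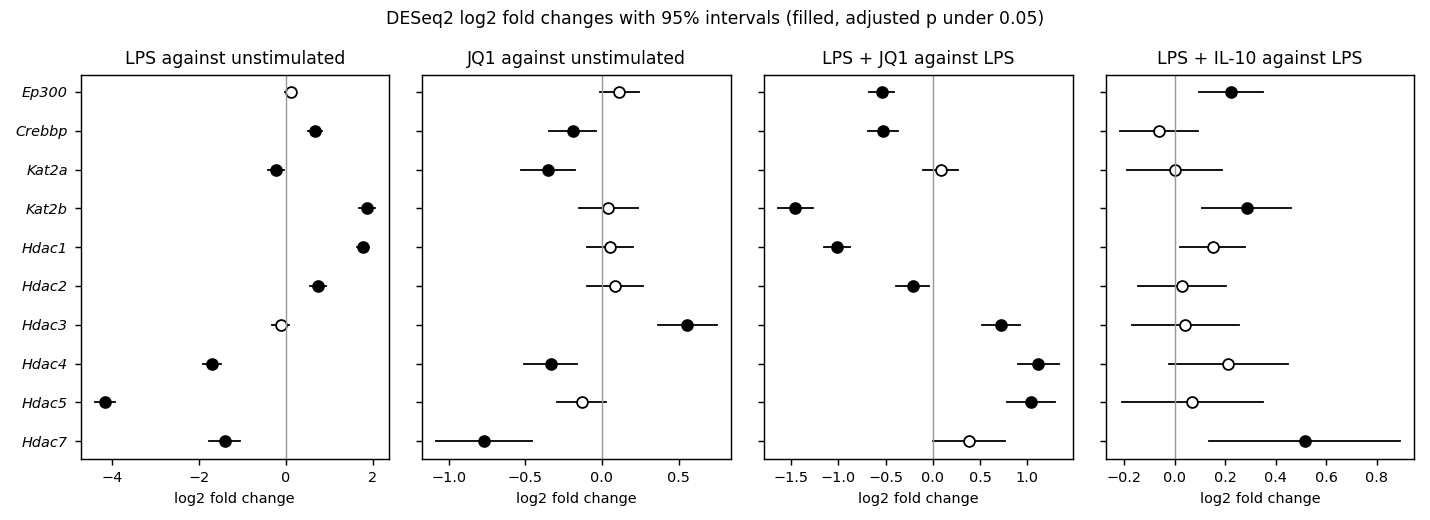
DESeq2 log2 fold changes of the 10 genes with 95% confidence intervals in 4 comparisons, each panel with its own axis range, with filled points for an adjusted p under 0.05. LPS moved Hdac5 to -4.18 and Kat2b to 1.87, and in LPS + JQ1 against LPS the same genes were at 1.04 and -1.45. Under total-count scaling the signs of Ep300, Crebbp and Hdac2 with LPS and of Hdac2 in LPS + JQ1 against LPS were reversed. Changes not called were reversed as well. These were Ep300, Kat2b, Hdac1 and Hdac2 with JQ1 alone, and Crebbp and Kat2a in LPS + IL-10 against LPS.

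JQ1 without LPS had another pattern. In JQ1 against unstimulated, 5 of the 10 were called, beside 45.7% of all genes tested (21.9% higher and 23.7% lower), with Hdac3 higher and Crebbp, Kat2a, Hdac4 and Hdac7 lower, and these 5 were also called in the same direction under all 4 scalings (36.9% of all genes tested were). Of all genes called, 48.0% were higher in the main fit and 26.8% under total-count scaling. Without replicate 1 of all groups 2 calls were left, since those of Crebbp, Kat2a and Hdac4 missed the threshold (DESeq2 adjusted p = 0.246, 0.126 and 0.109).

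Hdac3 rose and Hdac7 fell by the most. Hdac3 was at 32.3, 35.1 and 38.2 TPM with JQ1, above the unstimulated libraries, a log2 change of 0.56 ± 0.10 (1.47-fold, DESeq2 adjusted p = 9.76e-08). Hdac7 was at 3.56, 2.81 and 2.74 TPM, under them, with a log2 change of -0.77 ± 0.16 (1.71-fold lower, DESeq2 adjusted p = 7.41e-06). Hdac4 (1.26-fold lower) and Kat2a (1.28-fold lower) had adjusted p-values of 0.000575 and 0.000297 in DESeq2. Crebbp was 1.14-fold lower (adjusted p = 0.0362). Hdac5, the gene that LPS lowered most, was at 60.4 to 65.3 TPM with JQ1 and 75.1 to 80.9 TPM without, but its log2 change of -0.13 ± 0.08 was not called (DESeq2 adjusted p = 0.183). The change of Hdac5 was called under total-count scaling (-0.31, DESeq2 adjusted p = 0.000154) and on log2(TPM + 1) (-0.33, limma adjusted p = 0.00823). The log2 changes of Kat2b, Hdac1 and Hdac2 were 0.04, 0.05 and 0.08, none of them called. That of Ep300 was 0.11 ± 0.06 (adjusted p = 0.148, and 0.0379 with the replicate block).

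Whether the effect of JQ1 differed with and without LPS was tested as an interaction, which called 9 of the 10 genes, all but Hdac3, beside 41.5% of all genes tested (17.7% more positive and 23.8% more negative with LPS). Of these, 4 were more positive with LPS (Kat2a, Hdac4, Hdac5 and Hdac7) and 5 more negative (Ep300, Crebbp, Kat2b, Hdac1 and Hdac2). The interaction of Hdac4 was 1.45 ± 0.14 on the log2 scale (DESeq2 adjusted p = 7.91e-23), with JQ1 lowering the gene in resting cells and raising it in LPS cells. Hdac7 had the same pair of signs (-0.77 and 0.38, of which the second was not called) and an interaction of 1.15 ± 0.25 (adjusted p = 2.31e-05). The interaction was 1.17 ± 0.15 for Hdac5 (adjusted p = 3.72e-13), -1.50 ± 0.14 for Kat2b (adjusted p = 1.36e-26) and -1.06 ± 0.10 for Hdac1 (adjusted p = 5.29e-23). Kat2a, Hdac4, Hdac5, Hdac7, Kat2b and Hdac1 kept their interaction under all 4 scalings (25.8% of all genes tested did), whereas those of Crebbp and Hdac2 changed sign under total-count scaling (0.22 and 0.26). The share of higher calls over all genes was 42.6% in the main fit and 85.4% under total-count scaling. For Hdac3 JQ1 raised the gene in both states (0.56 and 0.72), and the interaction was 0.16 with a 95% confidence interval of -0.12 to 0.44. This too depended on the scale. The Hdac3 interaction was called under total-count scaling (0.72, DESeq2 adjusted p = 1.90e-06) and on log2(TPM + 1) (0.63, limma adjusted p = 0.000860).

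The LPS response within JQ1-treated cells, LPS + JQ1 against JQ1, differed in size from the response without JQ1. In this comparison 8 of 10 genes were called, 5 higher and 3 lower, beside 58.6% of all genes tested (27.6% higher and 31.0% lower). Hdac5 still fell 8.04-fold (DESeq2 adjusted p = 3.91e-202) and Hdac1 still rose 1.64-fold (adjusted p = 4.73e-21), and Ep300 was 1.45-fold lower (adjusted p = 1.19e-15). These 3 genes alone kept their calls under all 4 scalings (49.6% of all genes tested did). Kat2b was 1.30-fold higher (adjusted p = 0.000304), compared with 3.65-fold without JQ1, and its log2 change under total-count scaling was -0.003. Hdac4 was 1.18-fold lower (adjusted p = 0.0186), compared with 3.23-fold without JQ1. Crebbp (1.26-fold), Kat2a (1.16-fold) and Hdac2 (1.36-fold) were called higher, with log2 changes of -0.04, -0.16 and 0.07 under total-count scaling.

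IL-10 did much less to these genes than JQ1 did. In IL-10 against unstimulated, DESeq2 called 0 of the 10 genes, beside 2.81% of all genes tested, with 1 gene (Ep300) at an unadjusted p under 0.05, and edgeR called 0 with 0 at that p. Ep300 was at 65.6 to 70.6 TPM with IL-10 and 56.9 to 63.3 TPM without, a log2 change of 0.13 ± 0.06 (DESeq2 adjusted p = 0.517).

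In LPS + IL-10 against LPS, 3 of 10 genes were called, all higher, beside 17.2% of all genes tested (8.38% higher), and all 3 held under the 4 scalings (11.7% of all genes tested did). Kat2b was at 43.7, 46.8 and 59.1 TPM (1.22-fold, DESeq2 adjusted p = 0.0120), Ep300 at 44.5, 50.9 and 48.5 TPM (1.17-fold, adjusted p = 0.00577) and Hdac7 at 1.82, 2.35 and 1.93 TPM (1.43-fold, adjusted p = 0.0449). In TPM the Ep300 and Hdac7 libraries did not overlap those of LPS, whereas the lowest Kat2b library did. These calls depended on single replicates: 0 genes were called without replicate 1 or replicate 2 of all groups, 1 without replicate 3, and 0 when only the LPS and LPS + IL-10 libraries were fitted, where 3 had an unadjusted p under 0.05 in DESeq2 and edgeR on all libraries called 3. The interaction of IL-10 with LPS called 0 of 10 in DESeq2 (beside 7.44% of all genes tested, with Hdac7 alone at an unadjusted p under 0.05) and 0 in edgeR (with Hdac1 and Hdac7 under that p). For Hdac7 the interaction was 0.55 with a 95% confidence interval of 0.07 to 1.02 (DESeq2 adjusted p = 0.192).

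The pretreatments were also compared directly. In LPS + JQ1 against LPS + IL-10, 8 of 10 genes were called, 3 higher with JQ1 and 5 lower, beside 55.3% of all genes tested (23.8% higher and 31.6% lower), and 7 held under the 4 scalings (51.7% of all genes tested did), all but Hdac2. Kat2b was 3.34-fold lower with JQ1 (DESeq2 adjusted p = 3.95e-76), Hdac1 2.24-fold (adjusted p = 4.82e-62) and Ep300 1.70-fold (adjusted p = 3.84e-30). Hdac5 was higher by 0.97 on the log2 scale (adjusted p = 2.30e-13), Hdac4 1.87-fold (adjusted p = 4.14e-16) and Hdac3 1.60-fold (adjusted p = 1.74e-10). Hdac7 was at 1.77 to 2.35 TPM with JQ1 and 1.82 to 2.35 TPM with IL-10, a log2 difference of -0.13 with a 95% confidence interval of -0.49 to 0.23. In IL-10-treated cells the LPS response itself (LPS + IL-10 against IL-10) called 8 of 10, beside 67.0% of all genes tested (33.2% higher and 33.8% lower), and 5 held under the 4 scalings (56.6% of all genes tested did), with Hdac5 17.5-fold lower and Kat2b 4.04-fold higher, while Ep300 and Crebbp, called higher (log2 changes of 0.21 and 0.54), were at -0.62 and -0.29 under total-count scaling.

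Genes that work with the members were taken from 6 lists. Those named had the largest changes in LPS against unstimulated or in LPS + JQ1 against LPS. These comparisons share the LPS libraries, so the signs of the named genes in both are a description only. Of 11 other acetyltransferases, 10 were called with LPS (4 higher, 6 lower, median log2 change -0.24) and 8 in LPS + JQ1 against LPS (3 higher, 5 lower, median -0.25), beside the backgrounds of 64.5% and 57.3% already given. The median log2 changes of all genes were -0.07 and -0.10. Hat1, which acetylates newly made histones, went from 19.0 to 20.5 TPM up to 66.0 to 114 TPM with LPS and was at 36.8 to 46.7 TPM with LPS + JQ1 (7.14-fold higher, then 2.50-fold lower). Kat6b, a MYST-family enzyme, moved the other way, 5.08-fold lower with LPS and 2.49-fold higher with LPS + JQ1 than with LPS. Kat8, which acetylates histone H4, had the same signs at smaller size (1.51-fold lower, then 1.43-fold higher).

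Of the 5 other zinc-dependent deacetylases, 4 were called lower with LPS and 0 higher, beside 32.9% and 31.6% of all genes tested. In LPS + JQ1 against LPS, 2 were called higher and 1 lower, beside 24.4% and 32.9%. The log2 changes with LPS were -1.49 for Hdac6, -1.50 for Hdac8 of class I and -1.19 for Hdac10. That of Hdac11 was -3.96, with a mean of only 1.76 normalised counts in LPS cells. Hdac6, a mainly cytoplasmic deacetylase of tubulin, fell 2.81-fold with LPS and was 2.37-fold higher with LPS + JQ1 than with LPS. Hdac9, the remaining class IIa gene, moved the opposite way to Hdac4 and Hdac5 in LPS + JQ1 against LPS. It was at 5.90 to 6.74 TPM in unstimulated cells, at 1.41 to 2.15 TPM with JQ1, at 2.59 to 4.00 TPM with LPS and at 0.75 to 0.83 TPM with LPS + JQ1. JQ1 lowered it 2.93-fold without LPS (DESeq2 adjusted p = 8.10e-20) and 4.28-fold with LPS (adjusted p = 1.28e-25), and its LPS change of -0.25 was not called (adjusted p = 0.133), although it was under TMM scaling (-0.33), in edgeR (-0.32), on log2(TPM + 1) (-0.85) and under total-count scaling (-1.18). Of the 7 sirtuins, the NAD-dependent deacetylases, 6 were called with LPS (2 higher, 4 lower) and 5 in LPS + JQ1 against LPS (1 higher, 4 lower), beside 64.5% and 57.3% of all genes tested. Sirt7 was 2.25-fold higher with LPS + JQ1 than with LPS and Sirt2 and Sirt6 1.47-fold and 1.66-fold lower, while Sirt1 and Sirt6 were called higher with LPS on the DESeq2 scale (2.10-fold and 1.70-fold) but not under total-count scaling (log2 changes of 0.14 and -0.17) or on log2(TPM + 1) (0.26 and -0.04).

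Of 30 corepressor genes, the scaffolds and partners of the class I and class IIa enzymes, 24 were called with LPS (12 higher, 12 lower), beside 64.5% of all genes tested (31.6% higher, 32.9% lower). In LPS + JQ1 against LPS, 21 were called (8 higher, 13 lower, median -0.06), beside 57.3% (24.4% higher, 32.9% lower). Ing2, a reader of methylated histone H3 in the Sin3 complex, fell 4.91-fold with LPS and was 5.00-fold higher with LPS + JQ1 than with LPS. Sap30, another Sin3 subunit, rose 15.5-fold with LPS and was 2.73-fold lower with LPS + JQ1. Chd3, a NuRD remodeler, was lower with JQ1 both without LPS (3.76-fold) and with it (5.19-fold). Ing2 and Sap30, which belong to the same complex, thus moved in opposite directions in both comparisons.

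Of 21 genes for the acetyltransferase complexes and the Ep300 and Crebbp partners of the Cited family, 16 were called with LPS (6 higher, 10 lower) and, of 20 tested, 14 in LPS + JQ1 against LPS (8 higher, 6 lower, median 0.14), beside 64.5% and 57.3% of all genes tested. Trrap, the large scaffold of SAGA, was 1.38-fold lower with LPS and 2.39-fold higher with LPS + JQ1 than with LPS, and Tada2b, the SAGA adaptor, 1.36-fold lower and 2.11-fold higher. Dr1, an ATAC subunit and TBP inhibitor, rose 4.44-fold and was then 2.13-fold lower. Cited2, which competes for Ep300 and Crebbp, rose 10.8-fold with LPS.

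Of 21 class IIa regulators and targets, 17 of the 20 tested were called with LPS (9 higher, 8 lower) and 15 of 20 in LPS + JQ1 against LPS (4 higher, 11 lower, median -0.24), beside 64.5% and 57.3% of all genes tested. Mef2d, a transcription factor that class IIa enzymes repress, was at 55.4 to 62.0 TPM in unstimulated cells, 4.85 to 5.76 TPM with LPS and 17.5 to 21.0 TPM with LPS + JQ1. It fell 6.56-fold with LPS (DESeq2 adjusted p = 1.48e-110) and was 3.04-fold higher with LPS + JQ1 than with LPS (adjusted p = 6.44e-38). Camk2g, a calcium-activated kinase, fell 7.15-fold and was 5.47-fold higher, and Ywhaz, an adaptor of the family that holds phosphorylated class IIa enzymes in the cytoplasm, rose 3.34-fold and was 2.51-fold lower. Mef2d and Camk2g had the signs of Hdac4 and Hdac5 in both comparisons, and Ywhaz those of Kat2b and Hdac1. All of them were named for large changes in these comparisons, which share the LPS libraries. How many of all genes had such pairs of signs was not counted.

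The genes whose variance-stabilised counts over the 18 libraries were most like those of each member were named among 8378 genes, by Pearson's r and as a description, since the libraries share treatments. For Hdac5 they were Dnmt1 (0.997), Iqsec1 (0.997) and Adcy9 (0.996), and for Hdac4 Smarcd2 (0.989) and Hist2h3b (0.983). For Kat2b they were Sh3glb1 (0.996), Nab1 (0.993) and Edn1 (0.992), and for Hdac1 Bambi-ps1 (0.995) and Lipg (0.994). Hdac2 was most like Wtap, Dcun1d5 and Oxsr1, Crebbp like Vash1, Spi1 and Rnf214, and Hdac3 like Chchd7, Eef1d and Tmem14c. The best matches of Ep300 (Sash1, Dclre1c and Gmip), Hdac7 (Lnx2, Nrde2 and Zfp142) and Kat2a (Fam20c, Slc39a3 and Srm) reached 0.975, 0.952 and 0.913. On log2(CPM + 1) values in their place, at most 2 of the 3 most alike genes were kept for any member (2 for Hdac4, Hdac5 and Hdac7, 1 for Kat2a and Hdac1, and 0 for the other 5).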

How the data were processed

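Ribosomal RNA-depleted, stranded libraries of 18 BMDM cultures were sequenced by the authors, aligned to mouse build mm9 with STAR and quantified with RSEM 1.2.31, as the submitters' processing notes and the study's methods say. The deposited expected counts are the authors' estimates of reads per gene and were rounded. No member had a count that was not whole. The deposited TPM values are relative abundances per transcript length computed by the authors, and the deposited effective lengths varied by at most 2.36% between libraries for any member. RSEM's defaults ignore strand.

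The Wald test of DESeq2 1.42.0 (R 4.3.3), with which the study's methods also tested RNA-seq, was run on all 18 libraries with group as the term, median-of-ratios size factors and independent filtering. It was fitted and adjusted (Benjamini-Hochberg) over all genes, calls were made at 0.05, and the scripts were tested on simulated data. Fold changes are DESeq2 estimates, errors of fold changes are SE and errors of levels SD. Alternatives used edgeR 4.0.16 (quasi-likelihood test), limma 3.58.1 on log2(TPM + 1) and log2(TPM + 0.1), TMM or total-count scaling, a minimum of 10 counts in 3 libraries, no independent filtering, lane, the replicate block, only the groups compared, and each library or replicate number left out. The class IIa share over all zinc-dependent deacetylases was chosen after seeing the data.

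The labels describe matched samples of marrow from 3 mice without saying that a replicate number names a mouse. The numbers were taken to mark the match, and a fit with the number as a block was the alternative. Deviations of same-numbered libraries from their group means correlated at -0.12 to 0.45 over the comparisons, and at -0.10 to 0.08 in LPS + JQ1 against LPS, so the data did not show the pairing in every comparison. Chi-square per degree of freedom between replicates was 4.14 to 30.5, so no library was a duplicate deposit. A count of 3, the floor for 0, corresponded to 0.106 to 0.442 CPM, for counting error only. Lane was 7 for replicate 1 and 8 for replicate 3, and replicate 2 was on lane 7 without LPS and lane 8 with it.

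Members, lists and markers were chosen with earlier results of these data known. All members were named, and from each of 6 partner lists up to 3 genes called in LPS + JQ1 against LPS and up to 2 called with LPS, taking those with the largest change among genes averaging 100 or more normalised counts. Promoters came from RefSeq (GRCm38.p6), whose coordinates were not mixed with mm9. The promoters of Hdac1 and Hdac3 are not shown. A few genes that the naming rule selects are not reported here.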

Additional observations from a re-analysis of the deposited data

Results flagged for a closer look

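In 9 of the 10 genes the effect of JQ1 differed between LPS-stimulated and unstimulated cells by the DESeq2 interaction test, beside 41.5% of all genes tested. Each value is the log2 effect of JQ1 with LPS minus that without LPS. It was 1.45 for Hdac4, 1.17 for Hdac5, 1.15 for Hdac7 and 0.44 for Kat2a. It was -1.50 for Kat2b, -1.06 for Hdac1, -0.66 for Ep300, -0.34 for Crebbp and -0.30 for Hdac2. The values of Crebbp (DESeq2 adjusted p = 0.00833) and Hdac2 (adjusted p = 0.0498) were not called under TMM scaling and changed sign under total-count scaling, and that of Ep300 was -0.10 and not called there. The value of Hdac3, not called on the main scale, was called under total-count scaling (0.72). With the sequencing lane as a covariate that of Hdac2 missed the threshold (adjusted p = 0.0551). Without replicate 1, 2 or 3 of all groups the interaction of Hdac2 was not called (adjusted p = 0.112 to 0.384), nor were those of Crebbp and Kat2a without replicate 1 (adjusted p = 0.0917 and 0.160) or replicate 2 (adjusted p = 0.142 and 0.0514).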

How the results depend on the processing

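Of 1137 recomputed values of member changes that were called, 1003 kept their call and direction, 106 lost the call with the same sign, 20 lost it with the opposite sign and 8 were called in the opposite direction. Of 883 recomputed values of changes that were not called, 764 kept their sign and 75 changed it without a call, and 38 were called with the same sign and 6 with the opposite sign. The 34 sign changes that involved a call were all under total-count or TPM scaling, and their cause was not tested. In LPS against unstimulated the reversed log2 values, given first for total-count scaling, then for limma on log2(TPM + 1) and on log2(TPM + 0.1), were -0.26, -0.11 and -0.11 for Crebbp, -0.19, -0.029 and -0.030 for Hdac2, and -0.81, -0.65 and -0.66 for Ep300, which was not called on the main scale. For the partner genes Sirt6 and Sirt2, the latter not called on the main scale, they were -0.17, -0.036 and -0.040, and -0.74, -0.60 and -0.60. In the same order they were 0.16, 0.084 and 0.087 for Hdac2 in LPS + JQ1 against LPS, -0.16, -0.048 and -0.051 for Kat2a and -0.33, -0.22 and -0.23 for Hdac3 (not called on the main scale) in LPS + JQ1 against JQ1, -0.62, -0.50 and -0.51 for Ep300 and -0.29, -0.17 and -0.18 for Crebbp in LPS + IL-10 against IL-10, and 0.22, 0.17 and 0.18 for Crebbp and 0.26, 0.20 and 0.21 for Hdac2 in the interaction of JQ1 with LPS. Under total-count scaling alone they were 0.040 for Hdac2 in LPS + JQ1 against LPS + IL-10, -0.043 for Crebbp and -0.003 for Kat2b in LPS + JQ1 against JQ1, and -0.072 for Hdac2 in LPS + IL-10 against IL-10.

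The number of genes called in LPS + IL-10 against LPS was 3, 0 with only the groups compared, and 0 to 3 with a library or replicate number left out. In JQ1 against unstimulated it was 5, and 2 to 5 with a library or replicate number left out. In the remaining comparisons the counts stayed within 1.5 times the main count. The replicate block, which pairs libraries by replicate number, gave 9 in place of 8 calls with LPS and 6 in place of 5 with JQ1 alone, both by adding Ep300, and changed no other call of the 10 genes. With 3 libraries per group, p-values measure the spread between these cultures, and Hdac7, with 47 to 94 counts in LPS libraries, was the least precisely measured of the 10.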
